A study of Mus musculus with 3 samples.

Results

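The data describe the response of ST2 cells to forced expression of NELL2, as the difference between 1 library of NELL2 overexpression and 1 library of the matched control. ST2 is an established mouse line of bone marrow stromal cells, the connective tissue cells of the marrow, and its medium, with 10% FBS, is DMEM in the sample labels and α-MEM in the study's methods. Every cell population received a plasmid and an siRNA together by lipofection. The control population received the empty vector with control siRNA. The NELL2 overexpression population received the NELL2 expression construct with control siRNA, and another population received the empty vector with Fn1 siRNA, each siRNA at 30 nM. The promoter and the species of the construct are not given in the sources used here. Polyadenylated RNA was sequenced, and the value per gene was FPKM, the fragments assigned to a gene per kilobase of transcript, scaled to the total of mapped fragments. All uniquely named genes at 5 FPKM or more in either the NELL2 overexpression or the control library were compared, which gave 8773 of the 51826 rows of the table. Of these, 8324 reached 5 FPKM in both libraries, 238 only with NELL2 and 211 only in the control. Just inside this limit lay Gm11878 and D230025D16Rik, whose higher value was 5.003 and 5.005 FPKM, and just outside it Dubr and Gm24029, at 4.996 and 4.997 FPKM.

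NELL2 is a secreted glycoprotein with von Willebrand factor type C and EGF-like repeats, best known from neurons, where it guides axons through Robo receptors. It also acts through the receptor tyrosine kinase ROS1 in the epididymis. Its paralog NELL1 is known for promoting bone formation. Marrow stromal cells can become osteoblasts or adipocytes, and they also make chemokines, colony-stimulating factors and adhesion molecules for the blood cells around them.

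There was 1 library in each group, so every difference is one between 2 libraries, no replicate error can be given and no test was made. Differences are given as NELL2 overexpression minus control in log2(FPKM + 1), where 1 is a 2-fold difference on that scale, and genes at low FPKM have their differences understated. The 3 libraries held an estimated 23000000, 23700000 and 24200000 fragments (control first, then NELL2, then Fn1 siRNA). A transcript of 2 kb at 5 FPKM then stands for 230 fragments in the control and 237 with NELL2. The mitochondrially encoded genes accounted for 7.01% of summed FPKM in control cells, 6.03% after NELL2 and 5.92% after Fn1 siRNA. Such RNA from a whole culture cannot tell fewer cells of a type from less RNA per cell.

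The construct was plainly visible in its library. Nell2 (ENSMUSG00000022454.17; chr15:95075230-95528559, minus strand, GRCm38) stood at 0.640 FPKM in control cells and at 326 FPKM in cells given the construct, a difference of 7.64. With Fn1 siRNA it stood at 1.06 FPKM, so that the construct library alone was high. The values do not tell transcripts of the plasmid from those of the chromosome. Its paralog Nell1 was at 0.141 FPKM in the control and 0.152 FPKM with NELL2.

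The stromal label was borne out by its markers. All 10 stromal fibroblast markers were at 5 FPKM or more, among them Sparc at 2317 and 2439 FPKM, Col1a1 at 1494 and 1601 FPKM, and Cdh11 at 96.4 and 96.1 FPKM in control and NELL2 libraries. Of the 8 lymphoid markers 7 were listed at 0, and the highest endothelial and epithelial markers reached 0.914 and 0.344 FPKM. Of 11 macrophage and monocyte markers only Lyz2 reached the limit, at 11.8 and 13.9 FPKM, while the leukocyte marker Ptprc was at 0.0452 and 0.0633 FPKM. The 11 macrophage markers summed to 22.2 FPKM in the control, 25.6 FPKM with NELL2 and 14.9 FPKM with Fn1 siRNA.

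Apart from the construct itself, few genes differed strongly. At 2-fold, 46 genes (0.524% of 8773) were called, 24 of them higher with NELL2 (0.274%) and 22 lower (0.251%). Nell2 itself is counted among the higher ones here and at 1.5-fold. At 1.5-fold, 193 genes (2.2%) were past the limit, 120 higher (1.37%) and 73 lower (0.832%). The median difference over all 8773 genes was 0.01 with an SD of 0.25, and the 5th and 95th percentiles were -0.26 and 0.31. Of all genes, 56.1% lay within 0.1 of no difference, and 4599 were higher with NELL2 and 4174 lower (52.4% higher). Counts of higher and lower members of the lists below are to be read against that share. The limit on FPKM bears on these counts. Of the 46 genes, 22 were at 5 FPKM or more in both libraries, while 14 reached it only with NELL2 and 10 only in the control. A gene that differs this much and is low in 1 library enters the comparison only through its high one. The last genes counted as 2-fold were Zfp46, with 5.95 FPKM in the control and 2.48 FPKM with NELL2, Praf2 at -1.01 and Rbm38 at -1.01. The first ones left out were Cxcl1 at 0.98, Tpd52 at -0.98 and U90926 at 0.98.

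**Figure D1:**
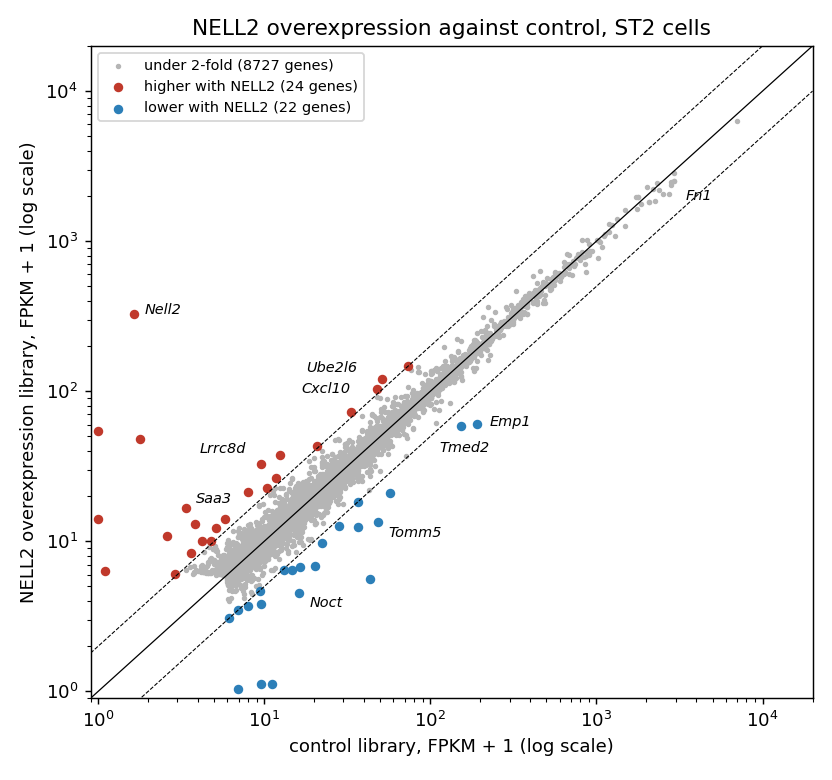
FPKM + 1 of 8773 genes in the control library (x axis, log scale) and the NELL2 overexpression library (y axis, log scale), 1 library each, with the line of equality and dashed lines at 2-fold. The 24 genes higher with NELL2 are red, the 22 lower are blue, and Nell2 lies farthest from the line at 326 FPKM against 0.640 FPKM.

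The genes past 2-fold were first divided by whether their reads could belong to a neighbour. Of the 46, 15 shared exon sequence on the same strand with another annotated gene, and 1.90% of all 788 such genes were called against 0.383% of 7824 genes with no such overlap. Among genes at 10 FPKM or more in their higher library, 23 had no known overlap of this kind, 13 higher and 10 lower, and AC147560.1 among them has no position to check it by. These 23 are described one by one below, by what they do.

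Immune genes stood among the higher ones. Saa3 (chr7:46711998-46715700), an acute phase serum amyloid of stromal cells and macrophages, had 2.36 FPKM in the control, 15.6 FPKM with NELL2 and 0.525 FPKM with Fn1 siRNA, a difference of 2.30. Cxcl10 (chr5:92346638-92348889), a chemokine for T cells that interferons induce, had 46.7, 102 and 36.4 FPKM in the same order, a difference of 1.12. Ube2l6 (chr2:84798828-84810335), the enzyme that conjugates the ubiquitin-like protein ISG15, had 50.4, 119 and 47.9 FPKM, a difference of 1.22. In all 3 genes the NELL2 library was the high one, and the Fn1 siRNA library lay below the control. Their estimated fragments were 75 and 509 for Saa3, 1312 and 2968 for Cxcl10, and 1101 and 2682 for Ube2l6 in control and NELL2 libraries.

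Signalling and membrane genes made up the next group. Lrrc8d (chr5:105699969-105832436), a subunit of the volume-regulated anion channel, had 8.50 FPKM in the control and 31.8 FPKM with NELL2, and 30.5 FPKM with Fn1 siRNA. The other channel subunits differed little, with Lrrc8a at 9.82 and 10.0 FPKM and Lrrc8c at 9.60 and 8.89 FPKM. Dcbld2 (chr16:58408443-58469727), a receptor-like membrane protein, had 6.98, 20.3 and 25.6 FPKM in control, NELL2 and Fn1 siRNA libraries. Abl1 (chr2:31688376-31804227), the tyrosine kinase, had 10.7, 25.4 and 14.7 FPKM, a difference of 1.17. Vash2 (chr1:190947646-190979296), a vasohibin that removes tyrosine from tubulin, had 4.14, 11.2 and 12.2 FPKM. Lrrc8d, Dcbld2 and Vash2 were thus low in the control library alone, whereas Abl1 was highest with NELL2.

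Another 5 of the 23 genes encode proteins of internal membranes or their lipids. Tmed2 (chr5:124540695-124550506), a cargo receptor of the p24 family between endoplasmic reticulum and Golgi, fell by 1.39, from 152 FPKM in the control to 57.5 FPKM with NELL2, beside 166 FPKM with Fn1 siRNA. Vma21 (chrX:71815924-71839757), which helps assemble the vacuolar proton pump, had 19.2, 5.90 and 5.20 FPKM in the 3 libraries. Pcyt1a (chr16:32430921-32475070), the rate-limiting enzyme of phosphatidylcholine synthesis, had 27.1, 11.6 and 31.0 FPKM. The low library was that of NELL2 alone for Tmed2 and Pcyt1a, and both the NELL2 and the Fn1 siRNA library were low for Vma21. In the other direction, Bcap29 (chr12:31590967-31634658), a membrane protein of the endoplasmic reticulum, had 4.81, 13.1 and 4.11 FPKM, a difference of 1.28. Ap3m1 (chr14:21031442-21052508), a subunit of the AP-3 adaptor that sorts proteins to lysosomes, had 19.9, 42.0 and 38.1 FPKM. Over the whole list of endoplasmic reticulum folding and export genes, 53 members were measured, 1 was past 1.5-fold higher (1.89%, against 1.37% of all genes) and 2 lower (3.77%, against 0.832%), and the median difference was 0.04.

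Mitochondrial and redox genes gave another mixed group. Tomm5 (chr4:45105208-45108114), a small subunit of the import pore of the outer mitochondrial membrane, fell by 1.84, from 47.1 to 12.4 FPKM, and had 54.0 FPKM with Fn1 siRNA. Another small subunit, Tomm6, had 9.78 FPKM in the control and 19.4 FPKM with NELL2, a difference of 0.92 that cannot be assigned to it, since it shares exon sequence on the same strand with Gm21981. The 10 other import genes measured lay close to equality, such as Tomm20 at 40.7 and 42.7 FPKM and Tomm40 at 44.7 and 46.0 FPKM. Tmem70 (chr1:16665207-16678275), an assembly factor of ATP synthase, had 21.1, 8.81 and 9.25 FPKM in control, NELL2 and Fn1 siRNA libraries. Prdx6 (chr1:161240112-161251219), a peroxiredoxin that reduces oxidised phospholipids, had 32.2, 71.5 and 112 FPKM. Prdx6 also has processed copies in the genome with which reads can be shared, so its level is uncertain.

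The remaining genes without known overlap were of several kinds. Noct (chr3:51224447-51251644), nocturnin, a rhythmically expressed enzyme, fell by 1.84, from 15.2 to 3.54 FPKM, and had 15 FPKM with Fn1 siRNA. Among 13 genes of the circadian clock list no other one passed 1.5-fold, and Bhlhe40, for example, had 35.9 and 39.1 FPKM. Emp1 (chr6:135362545-135383173), a four-span membrane protein of the PMP22 family, had 191 FPKM in the control, 59.5 FPKM with NELL2 and 31.8 FPKM with Fn1 siRNA. Its relatives Emp2, Emp3 and Pmp22 had 26.1, 174 and 36.9 FPKM in the control and 28.0, 172 and 39.4 FPKM with NELL2. Emp1 alone of the 4 family members passed the limit. Szrd1 (chr4:141113001-141139775) had 56.0, 19.9 and 59.1 FPKM. Strbp (chr2:37483228-37703859), which binds double-stranded RNA, had 13.7, 5.40 and 14.3 FPKM, and Tmem230 (chr2:132239492-132247807) had 12.1, 5.39 and 10.2 FPKM. These last 3 were low with NELL2 alone. H3f3a (chr1:180800832-180813943), which encodes the replacement histone H3.3, had 72.2, 147 and 84.2 FPKM, a difference of 1.02, and the other gene for the same protein, H3f3b, had 152 and 157 FPKM in control and NELL2 libraries. H3f3a has pseudogene copies and its level is uncertain to that extent. AC147560.1, which has no annotated position here, had 0.00125, 53.1 and 64.3 FPKM, near 0 in the control alone, and whether it overlaps another gene is not known. The 8 genes left, without overlap and under 10 FPKM in both libraries, were Bola1, Mgll, Mmp3 and Phf11b, which were higher with NELL2, and Zfx, Spsb2, Rbm38 and Zfp46, which were lower.

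**Figure D2:**
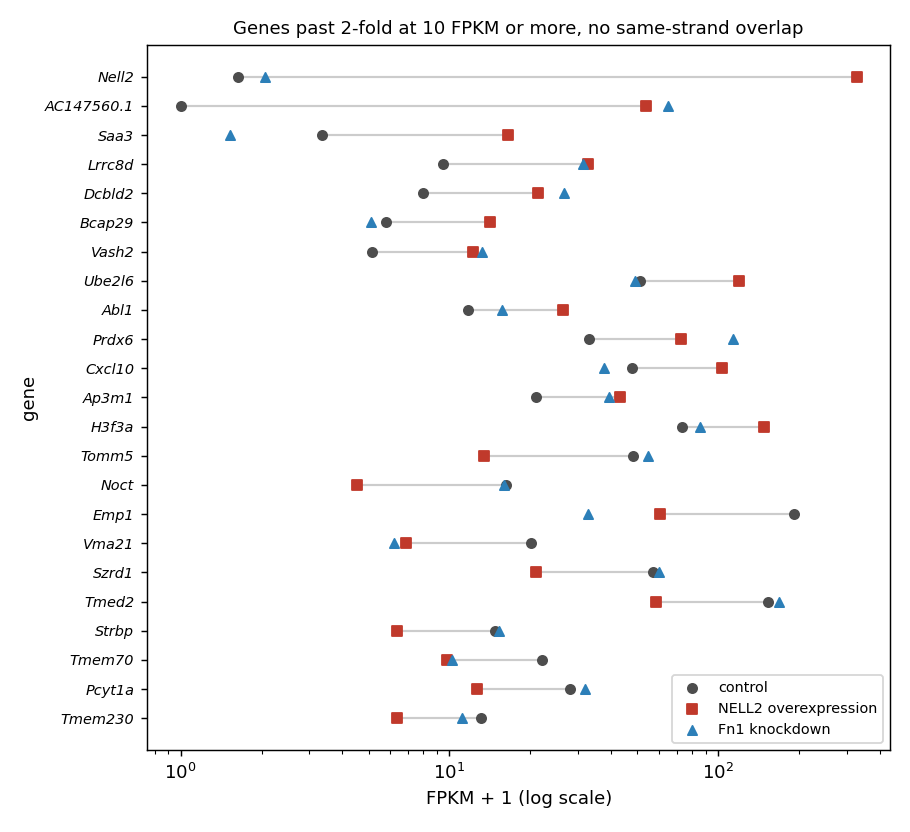
FPKM + 1 (x axis, log scale) of control (grey), NELL2 (red) and Fn1 siRNA (blue) cells, 1 library each, for the 23 genes past 2-fold at 10 FPKM or more with no known overlap on the same strand (AC147560.1 has no position to check). Nell2, Saa3, Ube2l6, Cxcl10, Tomm5, Noct and Tmed2 have the NELL2 library apart from both others, whereas for Lrrc8d, Emp1, Vma21 and Tmem70 the control library is the one apart.

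For genes that share exons with a neighbour, a difference cannot be assigned to 1 of them with certainty. Pcdhgb1, of the gamma protocadherin cluster whose members share their last exons, had 0.785 FPKM in the control, 46.7 FPKM with NELL2 and 27.2 FPKM with Fn1 siRNA, while Pcdhgb8 of the same cluster had 42.5, 4.59 and 0.245 FPKM. The 22 members of the cluster in the table, most of them under 5 FPKM, summed to 88.6, 94.2 and 92.3 FPKM, so that the sum differed little where single members differed much. Hist2h2aa1, a histone H2A gene with an identical copy nearby, was listed at 0 in the control and with Fn1 siRNA and at 13.1 FPKM with NELL2. Slc10a3 had 2.85, 11.95 and 13.0 FPKM, Chpf2, an enzyme of chondroitin synthesis, 11.5, 36.6 and 10.1 FPKM, and Krcc1 9.37, 21.7 and 9.21 FPKM. The only entry that overlaps Chpf2 is the microRNA Mir671, and for Krcc1 it is the microRNA Mir8112. The lower ones included Gm27640, a small RNA within Tug1, at 10.1, 0.116 and 0.0825 FPKM. Fbrs had 35.6, 11.5 and 23.97 FPKM, Bcl2l2, a survival protein of the BCL2 family, 15.4, 5.72 and 7.16 FPKM, and Praf2 35.9, 17.3 and 20.4 FPKM.

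The chemokines stood higher as a group. Of 26 chemokine genes, 8 were at 5 FPKM or more in either library and all 8 were higher with NELL2, 6 of them past 1.5-fold (75%, against 1.37% of all genes). Their median difference was 0.70, beside 0.01 over all genes, and it was 0.35 with a limit of 1 FPKM and 0.25 with no limit. Cxcl1 passed the limit only with NELL2, and over the 7 that passed it in the control the median was 0.70 with 5 past 1.5-fold. Ccl2, which draws monocytes, had 222 FPKM in the control, 361 FPKM with NELL2 and 168 FPKM with Fn1 siRNA. Ccl5, which draws T cells and monocytes, had 119, 197 and 77.6 FPKM. Ccl7, a relative of Ccl2, had 84.2, 133 and 110 FPKM. The neutrophil chemokines Cxcl1 and Cxcl5 gave the same order of control and NELL2 libraries, with 3.62, 8.13 and 2.97 FPKM for Cxcl1 and 11.2, 18.9 and 8.74 FPKM for Cxcl5. The constitutive chemokines of the stroma differed least, Cxcl12 with 7.40, 9.44 and 10.7 FPKM and Cxcl14 with 38.7, 45.6 and 26.04 FPKM. NELL2 was the highest of the 3 libraries for 7 of the 8 genes, the exception being Cxcl12, and it was the highest for 31.1% of all 8773 genes. The 26 genes summed to 553, 898 and 460 FPKM. The sums of the 11 macrophage markers given above, 22.2, 25.6 and 14.9 FPKM, ran in the same order, with Ptprc at 0.0452, 0.0633 and 0.0331 FPKM, and their part in the chemokine values was not tested.

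Acute phase genes were few at this level. Of 20, 3 were at 5 FPKM or more, with a median difference of 0.79. Saa3 passed only with NELL2, and the median of the 2 that passed in the control was 0.59. Beside Saa3 they were Cp, ceruloplasmin, at 12.04, 21.5 and 10.7 FPKM, and Ptx3, a long pentraxin, at 105, 138 and 141 FPKM. Cp was highest with NELL2, whereas Ptx3 was about as high with Fn1 siRNA. Under the limit, Lcn2, an iron-binding acute phase protein, was listed at 0 in the control and with Fn1 siRNA and at 0.891 FPKM with NELL2.

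Genes of NF-kB feedback also leaned higher. Of 29 genes for NF-kB subunits and their feedback inhibitors and targets, 23 were measured, 19 higher and 4 lower, with 3 past 1.5-fold (13.0%, against 1.37% of all genes) and a median difference of 0.16. Of these 3, Zc3h12a and Bcl3 passed the limit on FPKM only with NELL2, and over the 20 genes that passed it in the control 1 was past 1.5-fold and the median was 0.11. With a limit of 10 FPKM the median was 0.06, less than 0.1 from that of all genes. Nfkbiz, a nuclear IkB protein needed for secondary response genes, had 5.06, 9.22 and 6.43 FPKM in control, NELL2 and Fn1 siRNA libraries. Zc3h12a, an RNase that cuts cytokine messages, had 4.25, 7.10 and 3.71 FPKM, and Bcl3, another nuclear IkB protein, 3.99, 6.50 and 4.43 FPKM. Nfkbia, the classical inhibitor, had 21.1, 30.4 and 18.4 FPKM, a difference of 0.50 that stayed under 1.5-fold. The subunits themselves lay near equality, as Rela with 33.0 and 31.0 FPKM and Nfkb1 with 22.1 and 24.5 FPKM. Among 16 inflammatory cytokines and receptors, 14 were higher and 2 lower, and the median difference was 0.12. With a pseudocount of 5 or without overlapping genes that median came within 0.1 of that of all genes. The NELL2 library was the highest of the 3 for only 4 of the 16, against 31.1% of all genes. The 29 genes of the list summed to 552, 623 and 693 FPKM, highest with Fn1 siRNA. Only Lif, a cytokine of the IL-6 family, was past 1.5-fold (6.25%, against 1.37% of all genes), with 6.99, 11.8 and 7.40 FPKM.

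Interferon-stimulated genes were the largest of the lists set apart from the rest. Of 96, 83 were measured, 77 higher and 6 lower with NELL2, with a median difference of 0.34 beside 0.01 for all genes. At 1.5-fold 12 were higher (14.5%, against 1.37% of all genes) and 1 lower (1.205%, against 0.832%), and at 2-fold 2 were higher, Cxcl10 and Phf11b. Only 4 of the 83 passed the limit through the NELL2 library alone, and over the 79 that passed it in the control the median was 0.33 with 73 higher, 6 lower and 9 past 1.5-fold higher. The NELL2 library was the highest of the 3 for 71 of the 83 genes, against 31.1% of all genes. The differences were small but went the same way in genes of many functions.

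The effectors that block viruses are taken first. Rsad2, viperin, had 13.4 FPKM in the control, 23.3 FPKM with NELL2 and 16.1 FPKM with Fn1 siRNA. Oas1a, which makes the second messenger that activates RNase L, had 23.03, 36.1 and 29.1 FPKM, and Ifit2, which restrains viral translation, 13.2, 20.8 and 15.9 FPKM. Mx1, a dynamin-like antiviral GTPase, had 2.401, 5.41 and 2.92 FPKM and passed the limit only with NELL2. In these 4 genes the NELL2 library was highest and the Fn1 siRNA library lay between it and the control. The most abundant members showed smaller differences, Isg15 with 660, 821 and 729 FPKM, Ifitm3 with 818, 1012 and 827 FPKM and Ifit3 with 413, 581 and 455 FPKM. GTPases that interferon induces against intracellular pathogens varied, from Iigp1 at 49.8, 75.6 and 60.9 FPKM to Irgm1 at 203, 228 and 209 FPKM and Ifi47, which was lower, at 9.38, 8.11 and 12.05 FPKM. Gbp6 had 8.24, 16.1 and 10.4 FPKM, but it shares exon sequence on the same strand with Gm43302. Tgtp1 and Tgtp2 had 8.84 and 10.49 FPKM in the control and 16.7 and 19.2 FPKM with NELL2, but they are near-identical neighbours between which reads can be divided.

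Regulators of the response differed by less than 1.5-fold. Irf7, the amplifying transcription factor, had 101, 130 and 102 FPKM, Stat2 68.4, 84.1 and 60.8 FPKM, and Irf9 34.3, 35.8 and 32.3 FPKM in control, NELL2 and Fn1 siRNA libraries. Usp18, which removes ISG15 and damps the receptor, had 102, 132 and 127 FPKM. The lower ones were led by Isg20, an exonuclease, with 15.3, 9.67 and 10.1 FPKM, the sole member past 1.5-fold in that direction. Among sensors and adaptors of innate immunity, 17 were measured, 14 higher and 3 lower, and the median difference was 0.21. None was past 1.5-fold, against 2.2% of all genes. The RNA sensors Ddx58 and Ifih1 had 88.2 and 36.8 FPKM in the control and 113 and 46.1 FPKM with NELL2. The nucleic acid sensor Zbp1 had 69.1 and 92.6 FPKM. Ddx58, Ifih1, Zbp1, Irf7 and Dhx58 are in both this list and that of interferon-stimulated genes, and Cxcl10 is in the latter and among the chemokines, so these lists are not separate evidence.

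Antigen presentation by MHC class I leaned the same way. Of 23 measured genes, 22 were higher and 1 lower, 4 were past 1.5-fold (17.4%, against 1.37% of all genes), and the median difference was 0.38. Of these 4, H2-Q6 and H2-Q7 passed the limit on FPKM only with NELL2. Of the 21 genes that reached 5 FPKM in the control 2 were past 1.5-fold and the median was 0.35. The NELL2 library was the highest of the 3 for 13 of the 23 genes, against 31.1% of all genes. All 28 genes of the list found summed to 3980, 4560 and 4402 FPKM in control, NELL2 and Fn1 siRNA libraries. The classical class I genes H2-K1 and H2-D1 had 144 and 243 FPKM in the control, 223 and 337 FPKM with NELL2, and 252 and 322 FPKM with Fn1 siRNA. H2-Q4 had 54.2, 87.1 and 139 FPKM. For H2-K1 and H2-Q4 the Fn1 siRNA library was higher still, and these genes are near-copies of each other, so that their reads can be divided unevenly. Genes of the pathway without near-copies were higher too. The immunoproteasome subunits Psmb8, Psmb9 and Psmb10 had 46.9, 9.32 and 38.0 FPKM in the control and 62.3, 13.7 and 53.1 FPKM with NELL2. Tap1, which pumps peptides into the endoplasmic reticulum, had 26.9, 36.2 and 40.2 FPKM, and the light chain B2m 1788, 1957 and 1734 FPKM. The chaperones that serve other proteins as well were flat, with Calr at 573 and 573 FPKM and Canx at 197 and 203 FPKM.

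**Figure D3:**
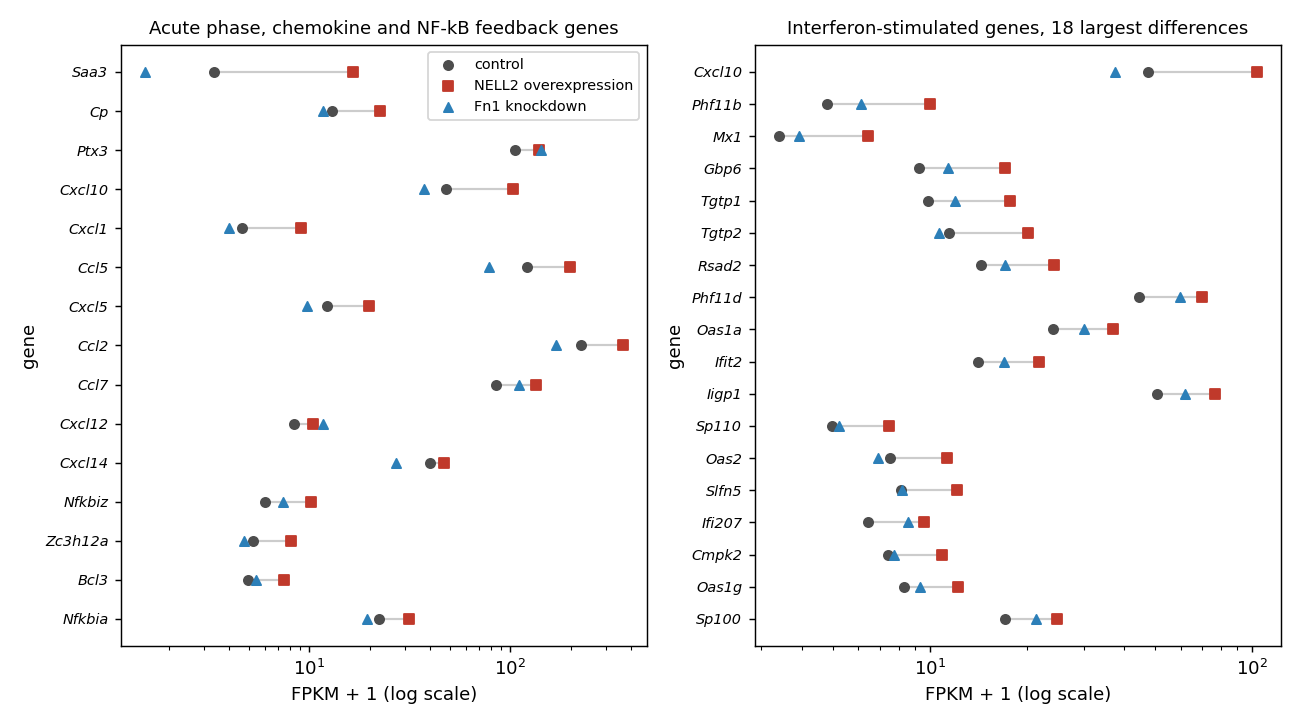
FPKM + 1 (x axis, log scale) in 3 libraries for 15 genes (left), which are the 3 acute phase genes and 8 chemokines at 5 FPKM or more and the 4 genes with the largest differences of the NF-kB list, and the 18 interferon-stimulated genes with the largest differences (right), 1 library per group. The NF-kB and interferon-stimulated genes were picked for their differences, so their direction is fixed by that choice. The acute phase genes and chemokines lie to the right with NELL2 (red), for example Ptx3 at 105 and 138 FPKM and Saa3 at 2.36 and 15.6 FPKM.

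Because these genes leaned the same way, their promoters were read for 2 short motifs. RefSeq (GRCm38.p6) held windows from 250 bases before to 50 after the start for 6700 of the 8773 genes (76.4%), and both strands were searched. The core of the interferon-stimulated response element was taken as GAAA, any 2 bases and GAAA, and the kB element as GGG, any 2 bases and TTTCC. The first was present in 3.44% of all 32851 promoters, in 4.07% of the 6700 genes compared, and in 36 of the 65 interferon-stimulated genes with a window (55.4%). Those 36 had a median difference of 0.38 and the 29 without it 0.27. Among 20 MHC class I genes the order was the opposite, with 0.35 in the 5 that held it and 0.42 in the others. The kB letters were present in 1.63% of all promoters, in 5 of 18 NF-kB list genes (27.8%) and in none of the 65 interferon-stimulated genes. A match of letters is not a bound site, and a window without them says nothing of the factor.

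The 250 bases before the start are shown for 5 genes with the letters, 3 of them past 1.5-fold in the groups above with a response element core (Cxcl10, Rsad2 and Oas1a), Saa3 for the largest difference among the immune genes, and Cxcl1 for its kB elements. Each reads 5′ to 3′ toward the start, and capitals mark the motif. The windows are chr7:46715677-46715926 (Saa3, minus strand), chr5:92348890-92349139 (Cxcl10, minus), chr5:90890995-90891244 (Cxcl1, plus), chr12:26456453-26456702 (Rsad2, minus) and chr5:120907526-120907775 (Oas1a, minus). The last 24 bases of the Saa3 window and the last 4 of the Cxcl1 window lie inside the gene as GENCODE draws it.
Saa3: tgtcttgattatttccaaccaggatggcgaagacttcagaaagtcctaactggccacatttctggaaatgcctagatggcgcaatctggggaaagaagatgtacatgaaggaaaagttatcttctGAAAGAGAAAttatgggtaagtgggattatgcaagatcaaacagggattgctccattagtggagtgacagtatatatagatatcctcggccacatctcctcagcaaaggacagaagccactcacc
Cxcl10: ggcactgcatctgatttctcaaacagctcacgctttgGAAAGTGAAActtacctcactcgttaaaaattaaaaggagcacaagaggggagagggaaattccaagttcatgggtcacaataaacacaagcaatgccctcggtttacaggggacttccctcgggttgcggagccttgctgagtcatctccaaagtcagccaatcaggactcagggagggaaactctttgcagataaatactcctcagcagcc
Cxcl1: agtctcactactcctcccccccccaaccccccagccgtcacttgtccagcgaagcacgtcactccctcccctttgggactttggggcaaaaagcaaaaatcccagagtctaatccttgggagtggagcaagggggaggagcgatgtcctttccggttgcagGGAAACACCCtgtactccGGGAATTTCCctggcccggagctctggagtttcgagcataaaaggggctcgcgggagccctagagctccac
Rsad2: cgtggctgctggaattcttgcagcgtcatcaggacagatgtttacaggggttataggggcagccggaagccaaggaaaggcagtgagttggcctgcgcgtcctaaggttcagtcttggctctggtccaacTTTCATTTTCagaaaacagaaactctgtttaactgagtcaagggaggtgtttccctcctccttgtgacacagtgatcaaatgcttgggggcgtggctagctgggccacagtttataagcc
Oas1a: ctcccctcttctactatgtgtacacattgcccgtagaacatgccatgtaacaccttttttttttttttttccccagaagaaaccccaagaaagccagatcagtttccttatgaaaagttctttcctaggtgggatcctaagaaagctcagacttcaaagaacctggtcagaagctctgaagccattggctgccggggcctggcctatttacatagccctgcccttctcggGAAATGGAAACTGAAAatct
The core lay 125 to 116 bases before the start in Saa3, 213 to 204 in Cxcl10 and, on the other strand, 120 to 111 in Rsad2. Oas1a held it in 2 overlapping copies, at 20 to 11 and at 14 to 5 bases before the start. Cxcl1 held the kB letters on each strand, at 89 to 80 and at 71 to 62 bases before the start.

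The known receptors and partners of NELL2 differed little. Ros1 was listed at 0 in all libraries. Robo1 had 4.51 FPKM in the control and 4.32 FPKM with NELL2, Robo2 1.65 and 1.71 FPKM, and Robo3 1.13 and 0.815 FPKM. The Robo ligand Slit2 had 9.88, 13.7 and 16.5 FPKM in control, NELL2 and Fn1 siRNA libraries, a difference of 0.44. Fn1, fibronectin, which the third library was made to lower, had 2802, 2489 and 137 FPKM, so that it was 0.17 lower with NELL2 on the log2 scale. Its receptor subunits Itga5 and Itgb1 had 117 and 497 FPKM in the control and 115 and 527 FPKM with NELL2.

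In 4 lists that follow integrin signalling no member passed 1.5-fold, a limit that 2.2% of all genes passed. At that share lists of these sizes hold few such genes, so a count of 0 says little about them. None of 6 integrin subunits, 40 focal adhesion genes, 59 genes of actin and the contractile cytoskeleton and 27 genes of the PI3K and AKT pathway passed that limit in either direction, while Abl1, which is in none of these lists, did as given above. Their median differences were 0.04, -0.06, -0.06 and 0.02. In the actin list 12 genes were higher and 47 lower, and in the focal adhesion list 14 and 26, where 52.4% of all genes were higher. Acta2, smooth muscle actin, had 1027, 768 and 1227 FPKM in the 3 libraries, a difference of -0.42. Actb, the common cytoplasmic actin, had 861, 801 and 830 FPKM, Zyx of focal adhesions 350, 328 and 316 FPKM, and Akt1 155, 149 and 153 FPKM. The actin genes thus leaned slightly lower with none reaching the limit.

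No lineage gene passed 1.5-fold either, a limit that 2.2% of all genes passed. At that share lists this short can hold none, so the count of 0 says little about them. Of 34 osteoblast genes, 17 were measured, 9 higher and 8 lower, with a median difference of 0.02. Runx2, the master factor of osteoblasts, had 10.8, 11.3 and 10.4 FPKM in control, NELL2 and Fn1 siRNA libraries, and Spp1, osteopontin, 2008, 2283 and 2727 FPKM. Twist2, which restrains Runx2, had 24.5, 33.1 and 27.2 FPKM and the largest difference of the list at 0.42. Other osteoblast genes were under the limit, with Alpl at 2.39 and 3.06 FPKM, Sp7 at 4.13 and 3.91 FPKM and Sost listed at 0. Of 35 adipogenic genes, 15 were measured, 4 higher and 11 lower, with a median of -0.04. Pparg had 2.01, 1.66 and 2.44 FPKM, Cebpa 1.63, 1.62 and 1.54 FPKM, and Fabp4 1.30, 1.29 and 1.49 FPKM, all under the limit. Pparg, Cebpa and Fabp4 were thus low in both libraries. Among 19 stromal niche genes 13 were higher and 6 lower, and the median difference was 0.06. None passed 1.5-fold, against 2.2% of all genes, with Vcam1 at 48.7, 65.9 and 50.04 FPKM and Nes at 27.5, 20.3 and 24.7 FPKM at the ends.

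Matrix genes were likewise near equality as groups. The medians were 0.05 over 40 collagens and their processing enzymes and 0.04 over 55 matrix glycoproteins and proteoglycans. None of these was past 1.5-fold, against 2.2% of all genes, a share at which such lists hold few. Of 30 matrix proteases and inhibitors, 19 were higher and 11 lower with a median of 0.05, and 2 were past 1.5-fold, both higher with NELL2 (6.67%, against 1.37% of all genes). Over the 29 at 5 FPKM or more in the control 1 was past 1.5-fold. Mmp3, stromelysin, had 3.22, 8.99 and 3.55 FPKM in control, NELL2 and Fn1 siRNA libraries and passed the limit only with NELL2. Mmp13, collagenase, had 21.8, 33.3 and 19.3 FPKM. Both were highest in the NELL2 library. Their inhibitors Timp1 and Timp2 had 875 and 1113 FPKM in the control and 1010 and 1077 FPKM with NELL2.

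Some further lists leaned slightly. Of 45 genes of the mitotic spindle and chromosome segregation, 8 were higher and 37 lower, with a median of -0.12. None was past 1.5-fold, against 2.2% of all genes. Mki67, the proliferation marker, had 15.8, 12.04 and 8.54 FPKM in the 3 libraries and Plk1, a mitotic kinase, 40.2, 32.8 and 19.1 FPKM. DNA replication genes had a median of -0.06 over 44, with 12 higher and 32 lower, and of these Tyms alone passed 1.5-fold (2.27%, against 1.37% of all genes), at 9.04, 14.7 and 6.67 FPKM. Glycolysis and glucose transport had 19 of 22 genes higher, with a median of 0.14, such as Slc16a3, which exports lactate, at 5.85, 8.65 and 5.84 FPKM and Ldha at 362, 412 and 348 FPKM. All 13 respiratory chain genes that mitochondria encode were lower, with a median of -0.23, and mt-Co1 had 7003, 6358 and 6154 FPKM. These 13 summed to 26246, 22403 and 21661 FPKM, so that the control library was the one apart. The NELL2 library was the lowest of the 3 for only 4 of them. The 84 nuclear genes of the chain had a median of 0.04, so nuclear and mitochondrially encoded subunits did not lean together.

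**Figure D4:**
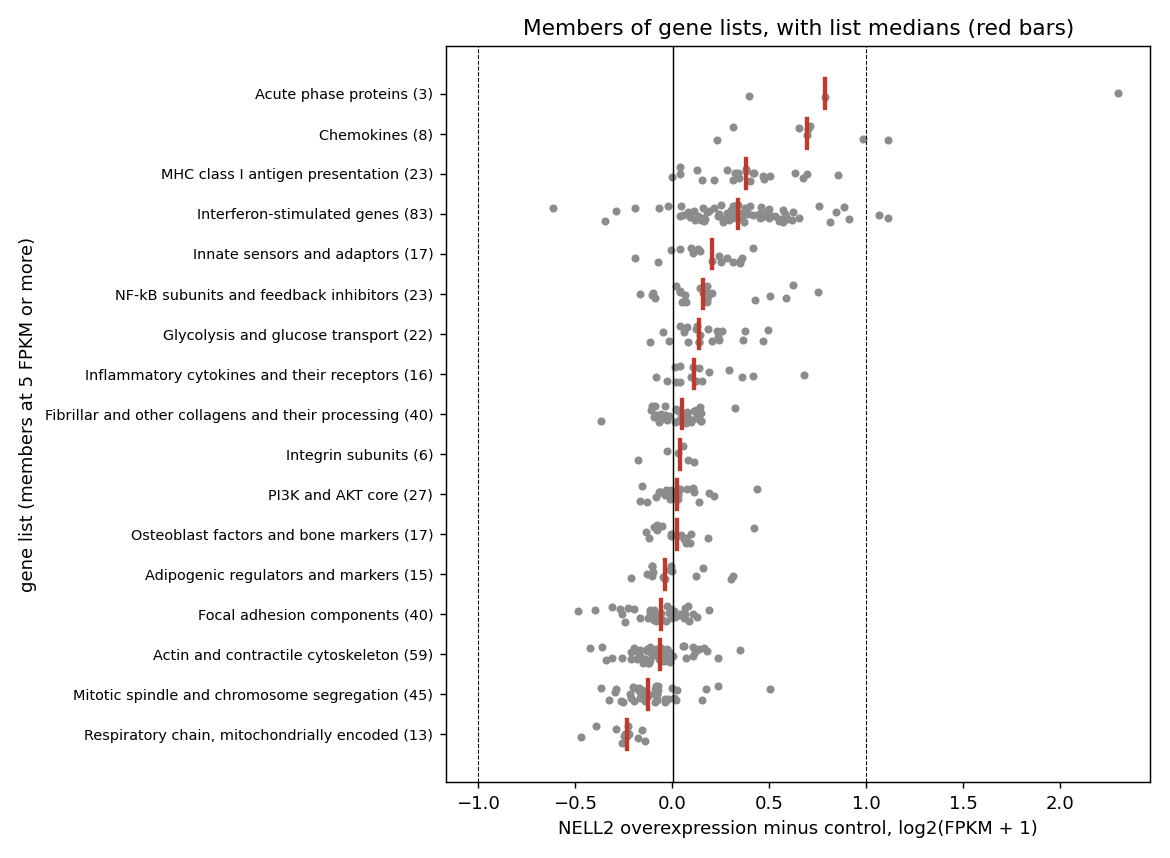
Difference of NELL2 overexpression minus control in log2(FPKM + 1) (x axis) for the members at 5 FPKM or more of 17 gene lists (number of genes in brackets), 1 library per group. Grey points are genes, red bars list medians, the solid line is the median of all 8773 genes (0.01) and dashed lines mark 2-fold, with chemokines at a median of 0.70 and interferon-stimulated genes at 0.34 above it and mitochondrially encoded genes at -0.23 below it.

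Across the 51 lists, 13 had a median at least 0.1 from that of all genes, 10 above and 3 below. Of these the histone list lay below with -0.10 over 16 genes, although the 2 members past 1.5-fold, Hist2h2aa1 and H3f3a, were higher (12.5%, against 1.37% of all genes), and its median came within 0.1 of that of all genes with a pseudocount of 5, a limit of 1 FPKM or no limit. The macrophage list (1 gene measured) and the gamma protocadherin list (2 genes) rest on too few members to describe. The endothelial, epithelial and lymphoid marker lists had no member at 5 FPKM, and the other 35 lists had medians between -0.06 and 0.08. Of 36 NRF2 targets 2 were past 1.5-fold higher (5.56%, against 1.37% of all genes), Prdx6 and the glutathione peroxidase Gpx1 at 18.9 and 30.4 FPKM, and 1 was lower (2.78%, against 0.832%), Osgin1 at 5.01 and 2.09 FPKM, which passed the limit on FPKM only in the control. Ribosomal protein genes had a median of 0.05 over 86, and p53 targets 0.01 over 27. Of all 193 genes past 1.5-fold, 54 belonged to a list (28.0%), as did 1241 of all 8773 genes (14.2%). The lists were written with earlier results of these data known, and some are the families of called genes such as Lrrc8d and Emp1. The larger share among genes past 1.5-fold can come from that choice and is not a result.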

How the data were processed

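Messenger RNA of ST2 cells was measured in 3 libraries, 1 each for control, NELL2 overexpression and Fn1 knockdown. RNA selected with oligo(dT) beads was read in pairs by the authors on the MGISEQ-2000 platform, and FPKM per gene was deposited. HISAT2, DESeq and GRCm38 are named in the submitters' processing notes. The program that computed FPKM, its annotation and the use of strand are not given in the sources used here. FPKM is already scaled to depth and length, so reads divided between overlapping or near-identical genes move FPKM between them.

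Rows with repeated names (187) were left out, and of 27 names that a spreadsheet had turned into dates only those of septins were read back. Coordinates and overlaps come from GENCODE M21 (GRCm38), matched by name for 98.2% of genes. Genes that reached 5 FPKM in at least 1 of both libraries were compared as log2(FPKM + 1) with a pseudocount of 1 and called at 2-fold, with a count at 1.5-fold beside it. A list was set apart when its median lay at least 0.1 from that of all genes. Depth was estimated from the commonest low product of FPKM and transcript length. Between 24.8% and 25.4% of low values lay within 0.02 of a whole fragment, so read counts were not recovered and fragment numbers are approximate. Python 3.11.15, pandas 2.3.3 and numpy 2.4.6 were used, and the call rule was checked on simulated data.

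The genes compared and the 51 lists were chosen with earlier results of these data known. The genes named are Nell2 and Fn1; up to 15 genes in each direction with the largest difference among those called at 10 FPKM or more without same-strand overlap; up to 5 in each direction among those with overlap; list members past 1.5-fold or among the 4 highest in the control; and cell type markers. Other list members, Gm11878, D230025D16Rik, Dubr, Gm24029, Zfp46, Rbm38, Zfx, Spsb2, Bola1, Mgll, Tpd52 and U90926 were named after their values were seen. Alternatives were other pseudocounts, limits on FPKM, cutoffs, a median-of-ratios scaling and the removal of overlapping genes.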

Additional observations from a re-analysis of the deposited data

How the results depend on the processing

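Counts of genes past 2-fold were 46 in all, 24 higher and 22 lower. With a pseudocount of 5 they became 25, 14 and 11. With a limit of 1 FPKM, and equally with no limit, they became 81, 46 and 35. After removal of genes with same-strand overlap or with no annotated position 30 were called, 14 of them lower. At 1.5-fold they were 193, 120 and 73, and at 4-fold 11, 7 and 4. With 5 FPKM required in the control, a limit chosen after seeing the data, 10 were higher. All other counts, and the number of lists set apart (10 to 13 of 51), stayed within 1.5 times. Of 431 list medians under alternatives, 410 stayed and 18 moved by 0.1 or more or across that limit. Among the lists set apart 3 values changed sign, all of the gamma protocadherins, whose median of 0.89 became -0.10 with a limit of 1 FPKM and with none, and -2.96 with 5 FPKM required in the control. Another 10 values changed sign in lists not set apart (integrin subunits, BCL2 family, septins, Wnt, growth factors and D-type cyclins), none of them more than 0.05 from 0 before or after. The LRRC8 median of 0.02 over 3 genes became 0.91 at 10 FPKM and 0.84 without overlap, each over 2 genes, one of them Lrrc8d. The lists for chemokines, interferon-stimulated genes, MHC class I, innate sensors, glycolysis and mitochondrially encoded genes were set apart under all of these. With no limit on FPKM the chemokine median fell to 0.25 (0.35 with a limit of 1 FPKM) and that of acute phase genes to 0.08, and at 10 FPKM that of the NF-kB list fell to 0.06. The cause was not tested. Of 46 named genes none changed sign, and 14 of 138 values crossed the 2-fold limit. With a pseudocount of 5, 9 of the 23 genes described one by one fell under it (Bcap29, Vash2, Abl1, Ap3m1, H3f3a, Strbp, Tmem70, Pcyt1a and Tmem230), as did Krcc1, Bcl2l2 and Praf2. With a pseudocount of 0.1 Cxcl1 and Mx1 passed it. No paired analysis was possible because there was 1 library per group. For the same reason no library could be left out, and no difference can be separated from the spread between cultures.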
